A study of Saccharomyces cerevisiae with 8 samples.

Results

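*pbp1Δ* cells were compared with WT cells 3 h after their switch to YPL, a medium whose carbon source is lactate and in which yeast must respire. The comparison takes in the 5759 genes, of 5774 listed, whose normalized counts averaged 10 or more over all 8 libraries of the study. The genes described are the 5633 that remain once the mitochondrial ribosomal proteins and the genes of mating type and pheromone response are set aside. Poly-A RNA was sequenced from 2 *pbp1Δ* and 2 WT cultures in YPL, labelled as biological replicates, and from the same number of *pbp1Δ* and WT cultures in log phase in YPD, the glucose medium, which are used here for the spread and for values given side by side. Both strains are prototrophic *S. cerevisiae* of the CEN.PK background. The WT strain is listed by the study as *MATa*, and *PBP1* is replaced in the other strain by a hygromycin cassette. Whether the 2 cultures of a group come from separate transformants is not stated in the sources used here.

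Yeast mitochondria are built almost wholly from nuclear genes. The mitochondrial genome encodes only a few subunits of the respiratory chain and ATP synthase, so that their synthesis needs a translation apparatus of its own, and a large set of assembly factors that insert heme, copper and iron-sulfur clusters. Many of the mRNAs for this apparatus carry an element in the 3′ UTR that is bound by Puf3, an RNA-binding protein of the PUF family. Pbp1 is a yeast protein of the ataxin-2 family and binds Pab1, which coats the tails of mRNAs. The question of the study was whether its loss alters the mRNAs that serve mitochondria.

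The YPL libraries held 37145992 and 37007483 reads in *pbp1Δ* cells, against 38618543 and 34485404 in WT cells. *PBP1* itself, at chrVII:851047-853215 in the R64 assembly, had 0 and 1 reads in *pbp1Δ* cells, against 12463 and 11204 in WT cells, which is at least 3942.4-fold lower when set against the 3 reads that a count of 0 allows. Its neighbours *ATF2*, *OKP1* and *RNR4* were not called, with log2 fold changes of 0.26, -0.03 and 0.28. The medium is visible in both strains. *JEN1*, the lactate permease, had 132339 and 136754 normalized counts in *pbp1Δ* cells, against 102904 and 116675 in WT cells in YPL, and no more than 660 in any YPD library. The 10 genes with the most reads held 8.23% and 7.32% of the reads in *pbp1Δ* cells, against 5.84% and 5.96% in WT cells. The strains also differ in mating type by their transcripts. *HMRA1*, whose sequence a *MATa* locus shares, had 0 reads in both *pbp1Δ* libraries, against 1693 and 1475 in the WT libraries, and the α pheromone gene *MF(ALPHA)1* had 36615 and 33306 normalized counts in *pbp1Δ* cells, against 21.4 and 3 in WT cells. The deletion and the mating type of the strain cannot be told apart in any comparison below, nor can less RNA in every cell be told apart from a smaller share of cells that make it.

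Values were compared as log2(normalized count + 1) in limma with all 4 groups in a single fit, and calls needed an absolute log2 fold change over 0.58 besides a p under 0.05 after Benjamini-Hochberg adjustment over all tested genes. Fold changes are *pbp1Δ* over WT on that scale, which understates the change of genes with few counts. Permutation of 2 libraries against 2 cannot go below a two-sided p of 0.333, so that every test rests on this model. Over all tested genes, 4.17% were called lower and 0.521% higher in *pbp1Δ* cells. Outside the mitoribosome and mating lists these were 161 lower and 25 higher genes, and none of the 186 had overlapping YPL libraries, as was so for 30.1% of all tested genes in the lower and 27.5% in the higher direction. Of the 161 lower genes, 76 were lower by a log2 fold change over 1, and of the 25 higher genes 6 were higher by as much. The number of calls moved with each YPL library left out. In each such fit most of the 25 higher genes lost their call, and the higher genes counted were not always among the 25. Without WT replicate 1, 46 genes were lower and 0 higher, and without WT replicate 2, 33 and 1. Without *pbp1Δ* replicate 1, 61 genes were lower and 0 higher, and without *pbp1Δ* replicate 2, 134 and 12. Leaving out *pbp1Δ* YPD replicate 1 or 2 left 14 or 13 higher genes. In all, 26 genes were called without each of the 8 libraries in turn, and all 26 were lower. Besides *PBP1*, *YDR210W-B*, *YMR321C*, *SUL1* and *ARG1*, this group is made up of genes for mitochondrial synthetases, translation factors, assembly factors and other mitochondrial proteins.

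The lower genes outside the mitoribosome often hold the letters of a Puf3 element. The letters TGTANATA were searched on the gene's strand in the 200 nt after the stop codon in the reference genome of strain S288C, taken in place of the 3′ UTR, whose ends were not mapped here. They stood there in 126 of the 161 lower genes (78.3%), in 0 of the 25 higher genes and in 834 of all 5759 tested genes (14.5%). The sites of 10 lower genes are shown because they span the roles described below, from tRNA charging to arginine synthesis. Capitals mark the element and the lower-case letters are the 10 bases on each side, 5′ to 3′.
MSY1: tgcactgactTGTAAATAagattataaa
COX10: tcattaatctTGTAAATAaatatttaaa
PET117: tactcttgttTGTATATAtgtaagaatc
MEF1: aaaacagtctTGTAAATAacaaattcca
CYT2: caactattccTGTAAATAaaaacatacc
MIA40: ggatgatacaTGTAAATAcagtaatatt
COX17: aaccatttctTGTATATAtaagaatagg
HSP60: tttattatctTGTAAATAcaatgtgaaa
ARG1: actcttgtgaTGTAAATAcatatgtaga
MET22: tgtatgtgtaTGTACATAccagttaaat
In the R64 assembly these lie, on the plus strand, at chrXVI:366498-366525 (*MSY1*), chrV:272129-272156 (*PET117*), chrXI:77078-77105 (*MIA40*) and chrXV:220536-220563 (*ARG1*), and on the minus strand at chrXVI:224284-224311 (*COX10*), chrXII:271586-271613 (*MEF1*), chrXI:277154-277181 (*CYT2*), chrXII:131156-131183 (*COX17*), chrXII:663208-663235 (*HSP60*) and chrXV:206017-206044 (*MET22*). The element starts between 18 nt (*CYT2*) and 78 nt (*MSY1*) after the stop codon in these genes. A match is a description of the reference sequence and does not show that Puf3 binds there in CEN.PK cells. *COX10*, *MEF1* and *COX17* hold 2 elements in the window. *SUL1* and *GGC1*, which are among the lower genes below, hold none.

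Genes with both the element and a mitochondrial annotation held most of the lower calls. Of the 264 genes outside the mitoribosome that had both the element and a mitochondrial annotation, 108 were called lower, and their median log2 fold change was -0.61. Of the 489 with the element and no such annotation, 18 were called lower (median -0.06), and of the 701 with the annotation and no element, 21 (median -0.004). Among the 4179 genes with neither, 14 were called lower (median 0.02). The deleted gene *PBP1* is among the 21 lower genes with the annotation and no element. Only the first element after the stop codon was scored for its letters and position, and 57 of the genes outside the mitoribosome hold 2 or more. Within the element, the fifth base was A in 202 genes, of which 71 (35.1%) were called lower, and T in 382, of which 43 (11.3%) were. With C there it was 11 of 120 (9.17%), and with G 1 of 49 (2.04%). A C in the 2 bases before the element, which 5.76% of all tested genes have with an element, stood in 264 of these genes outside the mitoribosome. Of those 264, 99 (37.5%) were called lower, against 27 (5.52%) of the 489 whose first element lacks it. The element began a median of 45 nt after the stop codon in the lower genes and 63 nt in the others that hold it. These shares are descriptions, since the letters were not varied in the experiment.

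**Figure D1:**
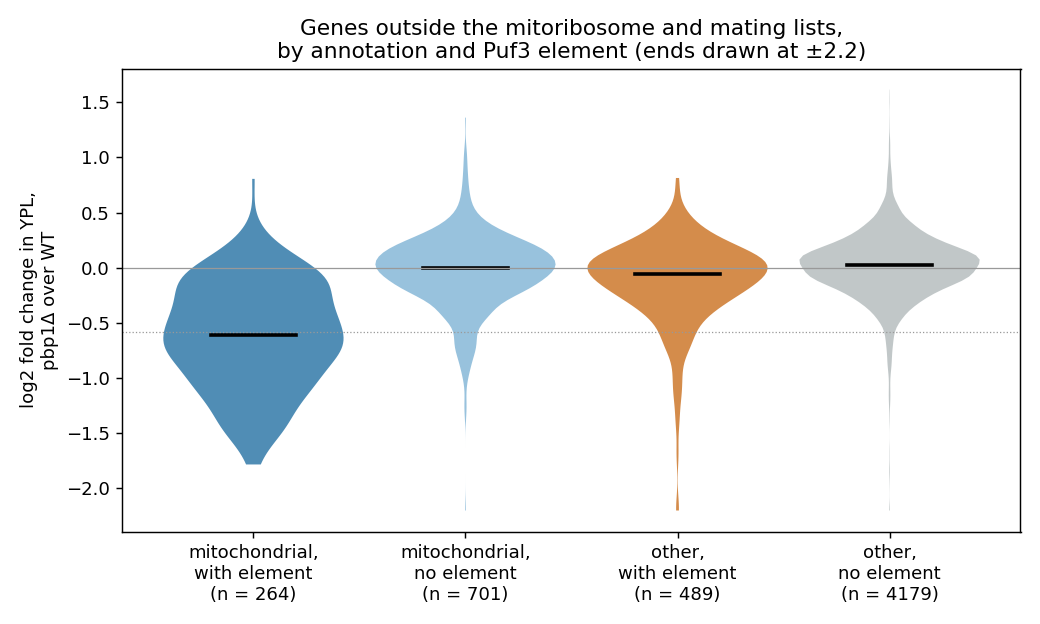
Log2 fold change in YPL (*pbp1Δ* over WT) of the 5633 genes outside the mitoribosome and mating lists, drawn as the density of each class, with a bar at the class median and a dotted line at the fold change threshold of -0.58. The 264 mitochondrial genes with a Puf3 element have a median of -0.61, and the other 3 classes have medians between -0.06 and 0.02.

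Of the 46 lists, the one for charging of mitochondrial tRNAs had the largest share of lower genes. Of the 17 tested mitochondrial aminoacyl-tRNA synthetases and related amidotransferase subunits, 15 were called lower and 0 higher, all 17 lay below 0, and the median log2 fold change was -1.18, beside -0.006 over all tested genes. *MSY1*, the tyrosyl-tRNA synthetase, had 2638 and 2605 normalized counts in *pbp1Δ* cells, against 8797 and 9254 in WT cells (log2 fold change -1.78 ± 0.10 SE, adjusted p = 0.000652). *MSF1*, which charges phenylalanine, had 1829 and 1751 normalized counts in *pbp1Δ* cells, against 4592 and 5083 in WT cells (log2 fold change -1.43 ± 0.21 SE, adjusted p = 0.0129). *MSK1*, for lysine, had 3971 and 4213 normalized counts in *pbp1Δ* cells, against 9829 and 11065 in WT cells (log2 fold change -1.35 ± 0.18 SE, adjusted p = 0.00811). In each of these genes, as in every gene called lower, both *pbp1Δ* libraries lay below both WT libraries. *DIA4*, a seryl-tRNA synthetase by similarity, was lower, with a log2 fold change of -1.29 (adjusted p = 0.00327). The member with the smallest difference was *GTF1*, a subunit of the glutamyl-tRNA amidotransferase, at -0.19. It was also the only one of the 17 without a Puf3 element in the window. With 1 YPL library left out, 8 (without WT replicate 2) to 13 of the 17 were called. The 19 cytosolic synthetases had 0 members called, also with the YPL libraries fitted alone, 3 with an unadjusted p under 0.05, and a median of -0.03.

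The steps that surround tRNA charging were lower in part. Among 11 translation factors 5 were lower, with a median of -0.81, and 3 and 2 were called without WT replicate 1 or 2 in YPL. *MEF1*, the elongation factor that moves the mitoribosome along its mRNA, had 8483 and 8208 normalized counts in *pbp1Δ* cells, against 23854 and 26660.0 in WT cells (log2 fold change -1.60 ± 0.11 SE, adjusted p = 0.00147). *RRF1*, the ribosome recycling factor, had 1230.4 and 1535 normalized counts in *pbp1Δ* cells, against 3754 and 3831 in WT cells (log2 fold change -1.46 ± 0.16 SE, adjusted p = 0.00425). The initiation factor gene *IFM1* and *GUF1*, a GTPase of mitochondrial translation, were lower, with log2 fold changes of -1.38 and -1.31. The 3 factors of this list without an element had a median of -0.01, against -1.14 in the 8 with one.

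Of 18 genes that maintain mitochondrial DNA or make and process mitochondrial RNA, 9 were lower (median -0.68). *RMD9*, which protects mitochondrial mRNAs, had 3544 and 4010.1 normalized counts in *pbp1Δ* cells, against 10216 and 11187 in WT cells (log2 fold change -1.50 ± 0.18 SE, adjusted p = 0.00546). *CCM1*, *MTF2* and *SUV3*, which act on mitochondrial rRNA, on *COX1* mRNA and in RNA turnover, had log2 fold changes of -1.19, -1.17 and -1.16, all called. Of 17 translational activators, which each serve a single mitochondrial mRNA or few, 5 were lower (median -0.47). *CBP6*, which with *CBP3* couples synthesis and assembly of cytochrome b, had 1237 and 1897 normalized counts in *pbp1Δ* cells, against 4021 and 4440.2 in WT cells (log2 fold change -1.46 ± 0.21 SE, adjusted p = 0.0111). *CBP3*, *ATP25* and *CBS2* were lower, at -0.88, -0.69 and -0.67. The activators called were 1 and 0 without WT replicate 1 or 2 in YPL, and 3 without either *pbp1Δ* replicate. Of 11 genes for maturation of mitochondrial rRNA and tRNA, 1 was called, *MSS116*, a helicase that helps mitochondrial introns to splice. It had 7029 and 8901 normalized counts in *pbp1Δ* cells, against 22069 and 22755 in WT cells (log2 fold change -1.50 ± 0.18 SE, adjusted p = 0.00546). The median of these 11 was nevertheless -0.61, and 6 of them were called when the YPL libraries were fitted alone, but 0 without WT replicate 1 or 2 or *pbp1Δ* replicate 1 in YPL. The calls in DNA and RNA maintenance were 0 without either WT replicate in YPL and 1 without *pbp1Δ* replicate 1. *MRP35*, a mitoribosomal protein that the list set aside does not hold, was among the 161 lower genes at -1.27, and *MHR1*, counted here with DNA maintenance, is annotated as a mitoribosomal protein as well.

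**Figure D2:**
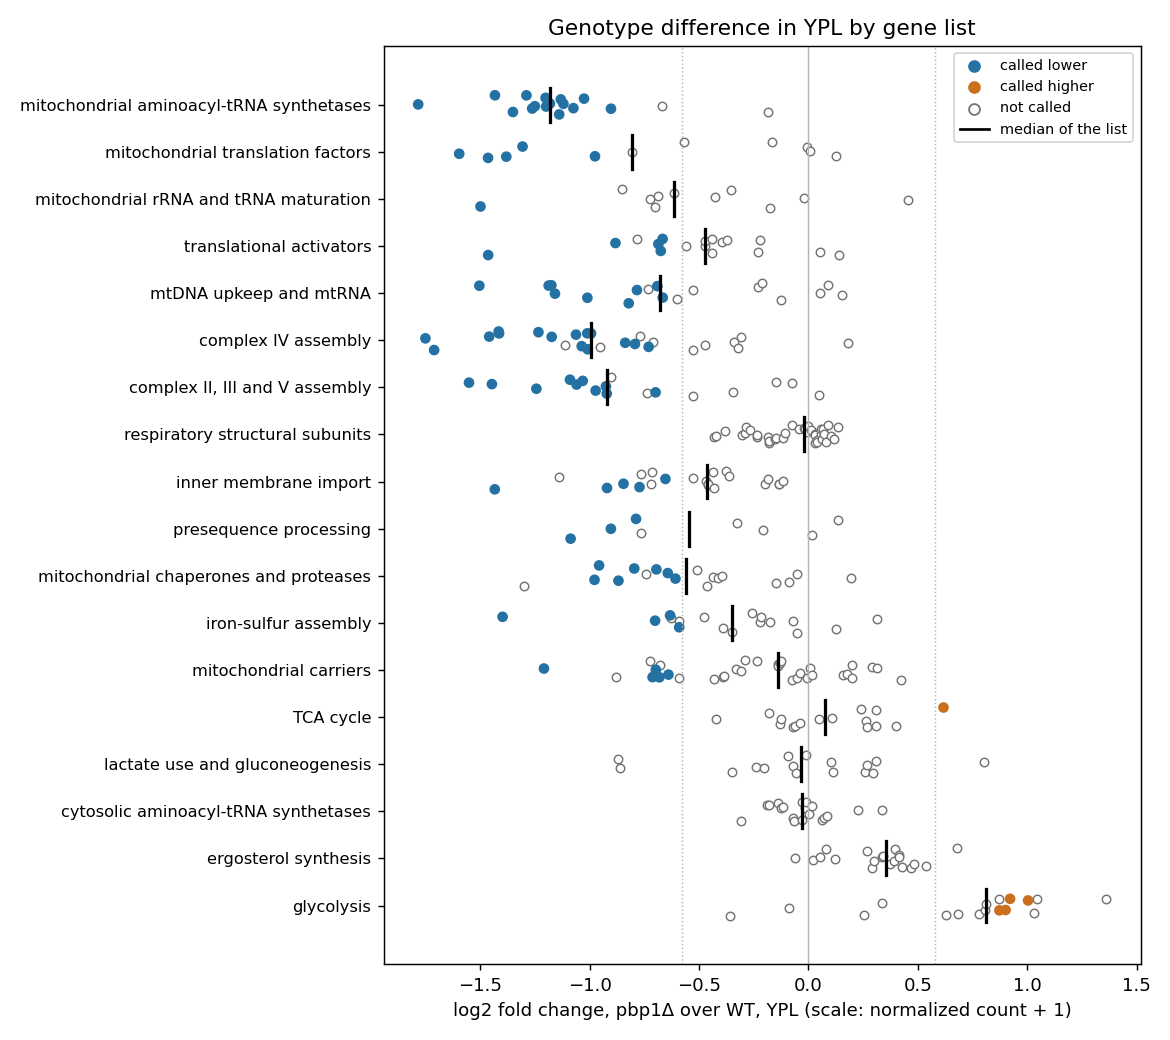
Log2 fold change in YPL (*pbp1Δ* over WT, horizontal axis) of the members of 18 gene lists, one point per gene, filled where the gene was called and open where it was not, with a bar at the median of the list and dotted lines at the fold change threshold of 0.58 in each direction. Lists for mitochondrial gene expression and respiratory complex assembly have medians between -1.18 and -0.47, the respiratory structural subunits -0.02 and glycolysis 0.81.

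Factors that assemble the respiratory chain were lower, and its structural subunits were not called. Of 25 factors for complex IV, cytochrome c oxidase, 15 were lower (median -0.99). *COX10*, which makes the farnesylated heme of the enzyme, had 2120.3 and 2165 normalized counts in *pbp1Δ* cells, against 7141 and 7276 in WT cells (log2 fold change -1.75 ± 0.15 SE, adjusted p = 0.00205). *PET117*, a factor of the same heme pathway, had 1176 and 1291 normalized counts in *pbp1Δ* cells, against 3970.2 and 4097 in WT cells (log2 fold change -1.71 ± 0.15 SE, adjusted p = 0.00261). *COX17*, the copper chaperone of the intermembrane space, had 4640.5 and 5166 normalized counts in *pbp1Δ* cells, against 12912 and 13176 in WT cells (log2 fold change -1.41 ± 0.17 SE, adjusted p = 0.00562). For each of these 3 genes, the WT libraries lay at more than 2 times the higher *pbp1Δ* library. *CMC1* and *COA4*, small proteins of the same compartment, were lower, with log2 fold changes of -1.46 and -1.42. *COX19* was the single member above 0, at 0.18, and the only one of the 25 without an element.

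Of 17 factors for complexes II, III and V, 10 were lower (median -0.92). *CYT2*, which attaches heme to cytochrome c1, had 3304 and 3718 normalized counts in *pbp1Δ* cells, against 9843 and 10714 in WT cells (log2 fold change -1.55 ± 0.10 SE, adjusted p = 0.00132). *SDH7*, for complex II, had 1332 and 1751 normalized counts in *pbp1Δ* cells, against 4162 and 4165 in WT cells (log2 fold change -1.45 ± 0.15 SE, adjusted p = 0.00372). *ATP12*, a chaperone of the catalytic part of ATP synthase, and *MZM1*, which stabilises the Rieske protein of complex III, were lower, at -1.24 and -1.09. Without 1 YPL library the calls were 2 to 15 of 25 for complex IV and 3 to 11 of 17 for the others, fewest without WT replicate 2 in both lists. Of 38 structural subunits of these complexes, 0 were called and 3 had an unadjusted p under 0.05, and their values ran from -0.43 (*QCR8*) to 0.14 (*CYT1*) with a median of -0.02. *COX4*, a subunit of complex IV, had 22753 and 27503 normalized counts in *pbp1Δ* cells, against 24563 and 24140.4 in WT cells. *ATP2*, the β subunit of ATP synthase, had 203516 and 186739 normalized counts in *pbp1Δ* cells, against 174777 and 184808 in WT cells. These groups overlap for *COX4*, and for *ATP2* the *pbp1Δ* libraries are the higher ones by less than the test could call (adjusted p = 0.774). An element was found in 24 of the 25 complex IV factors and in 6 of the 38 structural subunits, none of which was called.

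**Figure D3:**
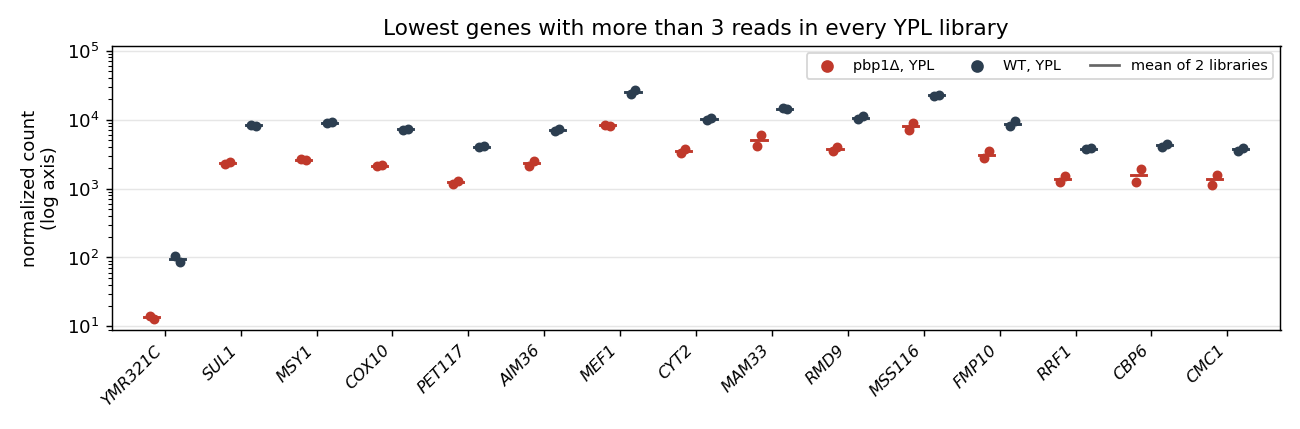
Normalized counts in YPL (log axis) of 15 of the lowest called genes outside the mitoribosome and mating lists, all with more than 3 reads in every YPL library, 2 *pbp1Δ* libraries (red, left) and 2 WT libraries (dark blue, right) per gene, with a bar at each mean. In every gene both *pbp1Δ* points lie below both WT points; *MSY1* has 2638 and 2605 in *pbp1Δ* cells, against 8797 and 9254 in WT cells.

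All 22 tested genes of import across the inner membrane and through the intermembrane space lay below 0 (median -0.46) and 5 were called. Here the 4 genes without an element had the lower median, -0.57, against -0.46 in the 18 with one. *MIA40*, which oxidises proteins that enter the intermembrane space, had 10018 and 13607 normalized counts in *pbp1Δ* cells, against 29792 and 33362 in WT cells (log2 fold change -1.43 ± 0.15 SE, adjusted p = 0.00396). *SSC1*, the Hsp70 of the import motor, had 75155 and 65817 normalized counts in *pbp1Δ* cells, against 120004 and 133001 in WT cells (log2 fold change -0.85 ± 0.17 SE, adjusted p = 0.0447) and has no element. *MBA1*, a receptor for mitoribosomes at the inner membrane, and *TIM10*, a chaperone of carrier precursors, were lower, at -0.92 and -0.77. At the outer membrane 2 of 13 genes were lower, *TOM6* at -0.80 and the receptor *TOM70* at -0.70. These calls were 0 without WT replicate 1 or 2 or *pbp1Δ* replicate 1 in YPL, and 3 without *pbp1Δ* replicate 2.

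Of 8 genes that process presequences 3 were lower: *CYM1*, the peptidase that degrades cleaved presequences, at -1.09, and both subunits of the matrix processing peptidase, *MAS1* at -0.90 and *MAS2* at -0.79. *MAS1* and *MAS2* have no element. The 6 genes of this list without an element had a median of -0.48, against -0.71 in the 2 with one. The calls among these 8 were 0 without WT replicate 2 in YPL and 1 without any other YPL library. Of 18 chaperones and proteases 7 were lower (median -0.56). *HSP60*, the chaperonin of the matrix, had 65094 and 57279 normalized counts in *pbp1Δ* cells, against 104413 and 118964 in WT cells (log2 fold change -0.87 ± 0.15 SE, adjusted p = 0.0233), and its partner *HSP10* had a log2 fold change of -0.98. *TCM62*, a chaperone-like protein, and *AFG3*, a subunit of a protease of the inner membrane, were lower, at -0.96 and -0.80. Without WT replicate 2 in YPL both inner membrane import and the chaperones had 0 calls, and without *pbp1Δ* replicate 2 they had 6 and 4. For cytosolic chaperones and heat shock genes, 0 of 23 were called, also with the YPL libraries alone, 2 had an unadjusted p under 0.05, and the median was 0.06.

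Cofactor, transport and membrane genes were mixed. *IBA57*, which acts late in iron-sulfur cluster assembly, had 2891 and 3020.3 normalized counts in *pbp1Δ* cells, against 7209 and 8408 in WT cells (log2 fold change -1.40 ± 0.15 SE, adjusted p = 0.00416), the lowest of 17 genes of that pathway, of which *ISA2*, *GRX5* and *SSQ1* were also called, at -0.70, -0.63 and -0.59. Of 33 carriers of the inner membrane 5 were lower and the median was -0.14. The lowest was *GGC1*, which exchanges GTP for GDP, with 4972 and 5101 normalized counts in *pbp1Δ* cells, against 11733 and 11546 in WT cells (log2 fold change -1.21 ± 0.09 SE, adjusted p = 0.00151). Its log2 fold change stands apart from the next called carriers *SAL1*, *FLX1* and *ODC2*, at -0.71, -0.70 and -0.68. Without any 1 of the 4 YPL libraries 1 carrier was called. Of 22 genes for mitochondrial lipids and shape 5 were lower, among them *MDM35* at -1.21, the cristae proteins *MIC12* and *MIC60* at -1.05 and -0.87, and the fusion protein *UGO1* at -0.78. The 8 genes of that list without an element had a median of -0.30, against -0.41 in the 14 with one. In coenzyme Q synthesis 1 of 11 was lower, *COQ1*, which makes the isoprenoid tail, at -0.85, and 0 were called without any 1 of the 4 YPL libraries. Without WT replicate 1 or 2 in YPL the calls were 1 and 0 in iron-sulfur assembly and 1 and 0 in lipids and shape, and without *pbp1Δ* replicate 1 or 2 they were 1 and 4 in iron-sulfur assembly and 2 and 5 in lipids and shape. In heme synthesis 0 of 8 were called, also with the YPL libraries alone, and 2 had an unadjusted p under 0.05.

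Further lower genes encode mitochondrial proteins that carry names from proteomes or screens, or that are in no list. Among 65 genes with AIM, FMP, RRG or MRX names, which mark proteins found in mitochondrial proteomes or in screens for mitochondrial inheritance and respiratory growth, 15 were lower (median -0.33). Of the 24 with an element 13 were called, and of the 41 without one 2 were. The genes called lower of all 65 were 3 and 2 without WT replicate 1 or 2 in YPL, and 4 and 9 without *pbp1Δ* replicate 1 or 2. *AIM36* had 2101 and 2534 normalized counts in *pbp1Δ* cells, against 6763 and 7272 in WT cells (log2 fold change -1.60 ± 0.12 SE, adjusted p = 0.00157). *FMP10* had 2734 and 3482 normalized counts in *pbp1Δ* cells, against 8011 and 9516 in WT cells (log2 fold change -1.50 ± 0.19 SE, adjusted p = 0.0078). *MRX15* was lower, at -1.33, and *AIM10*, a prolyl-tRNA synthetase by similarity that is counted with the synthetases too, was at -1.14. *MAM33*, an acidic protein of the matrix that is in none of the lists, had 4132 and 5944 normalized counts in *pbp1Δ* cells, against 14499 and 14333 in WT cells (log2 fold change -1.54 ± 0.23 SE, adjusted p = 0.0125). In all, 48 of the 161 lower genes are in no list, and 28 of these are annotated to mitochondria and 31 hold an element, beside 17.1% and 13.4% of all tested genes outside the mitoribosome and mating lists. The deleted gene *PBP1* is itself counted in the 161, the 48 and the 28. The 48 include *MSC6*, *DPC29* and *OMS1*, all mitochondrial and with an element, at -1.44, -1.42 and -1.38, named after their values were seen.

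Some genes of arginine synthesis and the arginase gene were among the lower genes, and other genes of arginine synthesis were not called. *ARG1*, argininosuccinate synthetase, had 5578 and 5727 normalized counts in *pbp1Δ* cells, against 14668 and 14308 in WT cells (log2 fold change -1.36 ± 0.09 SE, adjusted p = 0.00132). *ARG4*, argininosuccinate lyase, had 4788 and 7153 normalized counts in *pbp1Δ* cells, against 11158 and 14007 in WT cells (log2 fold change -1.09 ± 0.21 SE, adjusted p = 0.034). For both genes, as for every gene called lower, each *pbp1Δ* library lay below both WT libraries. The spread between *pbp1Δ* replicates was larger for *ARG4* than for *ARG1*. *ARG7*, the mitochondrial ornithine acetyltransferase, was lower, at -0.79. *ARG1* and *ARG4* hold an element and *ARG7* does not. *CAR1*, arginase, which breaks arginine down, was lower as well, with 4889.8 and 3894 normalized counts in *pbp1Δ* cells, against 10275 and 9358 in WT cells (log2 fold change -1.17 ± 0.12 SE, adjusted p = 0.00393), and was named after its values were seen. *ARG1* stayed called without each of the 8 libraries in turn. *ARG4* had an adjusted p of 0.108 and 0.233 in limma without WT YPL replicate 1 or 2, 0.116 without *pbp1Δ* YPL replicate 1, and 0.0556 and 0.0569 without *pbp1Δ* YPD replicate 1 or 2. *ARG7* had 0.0755 and 0.160 without WT YPL replicate 1 or 2 and 0.100 without *pbp1Δ* YPL replicate 1, and *CAR1* 0.0502 without WT YPL replicate 1. In YPD, where 0.972% of all tested genes were called in either direction, *ARG1*, *ARG4* and *ARG7* had log2 fold changes of -1.05, -0.64 and -0.46, and of the 3 *ARG1* was called. Of 29 genes for the synthesis of other amino acids 1 was called, *HIS1*, the first enzyme of histidine synthesis, at -0.72. That call was lost without either WT replicate or *pbp1Δ* replicate 1 in YPL.

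*SUL1*, a sulfate permease of the plasma membrane at chrII:789235-791814, was the only gene outside the mitoribosome and mating lists whose genotype difference differed between the media after adjustment in the fit without a replicate block, where 4 of all tested genes, 0.0695%, were called. With the block within each medium 360 of all tested genes were called for that difference. In YPL it had 2260.3 and 2427 normalized counts in *pbp1Δ* cells, against 8281 and 8209 in WT cells (log2 fold change -1.82 ± 0.11 SE, adjusted p = 0.000918). In YPD it had 1071 and 1030.1 in *pbp1Δ* cells, against 1025 and 889 in WT cells, with a log2 fold change of 0.14. Both strains were higher in YPL than in YPD, WT cells by far more, and in YPD the *pbp1Δ* libraries were slightly the higher ones. The difference between the media was -1.95 on the log2 scale (adjusted p = 0.0115 for the interaction in limma). Its size was between -2.06 and -1.85 without any 1 library, but the adjusted p was 0.204 and 0.197 without WT YPL replicate 1 or 2, 0.128 and 0.106 without *pbp1Δ* YPL replicate 1 or 2, and 0.0664 and 0.0709 without *pbp1Δ* YPD replicate 1 or 2. Of 26 genes of sulfate and methionine metabolism the only other called one was *MET22*, a phosphatase of the sulfate pathway, at -0.62, and the median was 0.10. The *MET22* call was lost without any 1 of the 4 YPL libraries. *SUL1* has no element.

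Few reads in *pbp1Δ* cells, and in some cases repeated sequence, mark the remaining genes at the low end. *RDT1*, a small gene in the recombination enhancer of chromosome III, which takes part in mating type switching, had 6.71 and 0 normalized counts in *pbp1Δ* cells, against 527 and 424 in WT cells (log2 fold change -7.41 ± 0.98 SE, adjusted p = 0.00852). The mating lists set aside do not hold *RDT1*, so it is counted among the 161 lower genes. The strains differ in mating type, and whether its difference belongs to that was not tested. *YDR210W-B*, a Ty retrotransposon, had 1 and 0 reads in *pbp1Δ* cells, against 156 and 110 in WT cells, at least 44.0-fold lower, and it overlaps another annotated gene. *YRF1-4*, a helicase of the subtelomeric Y′ repeats, had 2 and 0 reads in *pbp1Δ* cells, against 33 and 21 in WT cells, at least 8.9-fold lower, and *YMR321C* on chromosome XIII had 14.4 and 13 normalized counts in *pbp1Δ* cells, against 106 and 86 in WT cells (log2 fold change -2.72 ± 0.26 SE, adjusted p = 0.00327). Ty and Y′ copies are near identical and *YMR321C* is similar to *SAM4*. The study counted only uniquely mapped reads, so that reads shared by copies may be missing, and these values are uncertain. All but *RDT1* were called lower in YPD too, *YMR321C* at -2.56. Chromosome medians ran from -0.03 on chromosome XIII to 0.07 on chromosome I, and within 30 kb of chromosome ends 9 of 312 genes outside the lists set aside were called lower and 5 higher, 4.49% together, beside 3.23% of the 5321 genes outside those lists elsewhere, 152 lower and 20 higher.

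The 25 higher genes had smaller differences, between 0.59 and 1.61, and a different make-up. Most of them lost their call without any 1 of the 4 YPL libraries, and none changed direction. The clearest group was glycolysis. Of 17 glycolytic genes 4 were higher and 0 lower, 15 lay above 0, and the median was 0.81. *TDH3*, the main glyceraldehyde-3-phosphate dehydrogenase, had 887580.0 and 720549 normalized counts in *pbp1Δ* cells, against 433914 and 439982 in WT cells (log2 fold change 0.87 ± 0.17 SE, adjusted p = 0.0363). *GPM1*, phosphoglycerate mutase, had 33164 and 32617 normalized counts in *pbp1Δ* cells, against 17224 and 15633 in WT cells (log2 fold change 1.00 ± 0.13 SE, adjusted p = 0.00835). *ENO2*, an enolase, and *CDC19*, pyruvate kinase, had log2 fold changes of 0.90 and 0.92. *PDC1*, the pyruvate decarboxylase that leads from glycolysis to ethanol, had 242219 and 176110.0 normalized counts in *pbp1Δ* cells, against 102074 and 81045 in WT cells (log2 fold change 1.18 ± 0.20 SE, adjusted p = 0.0231). Both *pbp1Δ* libraries lay above both WT libraries for all 5 genes, as for every gene called higher.

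In YPD none of these genes was called, with log2 fold changes of 0.08 for *TDH3*, 0.04 for *GPM1* and -0.12 for *PDC1* and a list median of -0.09, but no glycolytic gene passed the test of the difference between media in the fit without a replicate block (adjusted p = 0.412 in limma for *GPM1*). *PGK1*, *TDH2* and *ADH1*, which are also abundant glycolytic or fermentative genes, had log2 fold changes of 0.87, 1.03 and 0.98 and were not called (adjusted p = 0.061, adjusted p = 0.139 and adjusted p = 0.0805). With the YPL libraries alone 11 of the 17 were called higher. Without WT replicate 1 or 2, or *pbp1Δ* replicate 1 or 2, in YPL none was. *IDH2*, a subunit of isocitrate dehydrogenase, was the only called gene of 16 in the TCA cycle, with 25691 and 31463 normalized counts in *pbp1Δ* cells, against 17911 and 19214 in WT cells (log2 fold change 0.62 ± 0.13 SE, adjusted p = 0.0473), and 0 were called there without any 1 of the 4 YPL libraries.

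**Figure D4:**
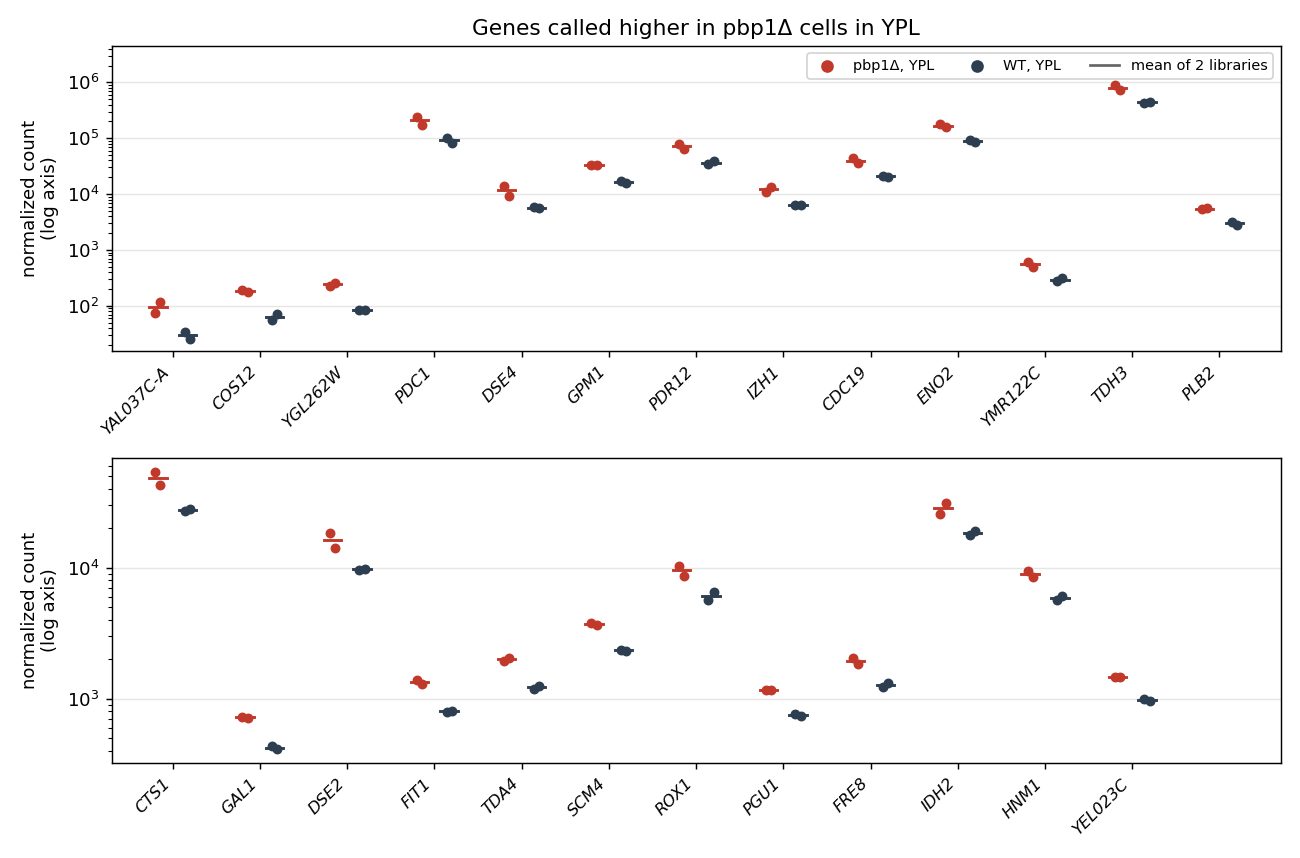
Normalized counts in YPL (log axis, which differs between the rows) of the 25 genes called higher in *pbp1Δ* cells outside the mitoribosome and mating lists, 2 *pbp1Δ* libraries (red, left) and 2 WT libraries (dark blue, right) per gene, with a bar at each mean. Both *pbp1Δ* points lie above both WT points in every gene; *PDC1* has 242219 and 176110.0 in *pbp1Δ* cells, against 102074 and 81045 in WT cells.

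*DSE4*, *DSE2* and *CTS1* are 3 of the 25 higher genes, set side by side after their values were seen. *DSE4* and *DSE2*, glucanase-like proteins that the daughter cell secretes, and *CTS1*, the chitinase that cuts the septum, are expressed after division in daughter cells. *DSE4* had 14084 and 9449 normalized counts in *pbp1Δ* cells, against 5889.7 and 5559.9 in WT cells (log2 fold change 1.01 ± 0.19 SE, adjusted p = 0.0361). *CTS1* had 54253 and 42837 normalized counts in *pbp1Δ* cells, against 27042 and 28126 in WT cells (log2 fold change 0.81 ± 0.13 SE, adjusted p = 0.0169), and *DSE2* had a log2 fold change of 0.74 (adjusted p = 0.0307). For all 3 genes the lower *pbp1Δ* library was replicate 2, and it lay above both WT libraries, as in every gene called higher. *PDR12*, which exports weak organic acids, had 79634 and 65005 normalized counts in *pbp1Δ* cells, against 34366 and 38978 in WT cells (log2 fold change 0.98 ± 0.19 SE, adjusted p = 0.039). *IZH1*, a membrane protein of zinc homeostasis, *PLB2*, a lysophospholipase, and *HNM1*, the choline permease, had log2 fold changes of 0.93, 0.87 and 0.61. The drug efflux list, which does not hold *PDR12*, had 0 of 13 called, 4 with an unadjusted p under 0.05 and 2 called with the YPL libraries alone.

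The others are single genes. *FIT1*, a cell wall mannoprotein that retains iron, had 1377 and 1286 normalized counts in *pbp1Δ* cells, against 798 and 808 in WT cells (log2 fold change 0.73 ± 0.14 SE, adjusted p = 0.0387) and was the only called gene of 22 in the iron regulon, and *FRE8*, a reductase-like protein, had a log2 fold change of 0.62. *ROX1*, the repressor of hypoxic genes, had 10406 and 8708 normalized counts in *pbp1Δ* cells, against 5637 and 6574 in WT cells (log2 fold change 0.64 ± 0.13 SE, adjusted p = 0.0435). *GAL1*, galactokinase, had 727 and 715 normalized counts in *pbp1Δ* cells, against 434 and 411 in WT cells (log2 fold change 0.77 ± 0.15 SE, adjusted p = 0.0423), and it overlaps an annotated non-coding RNA. *PGU1*, a secreted pectinase, *SCM4*, of the mitochondrial outer membrane, and *TDA4* were higher, at 0.64, 0.66 and 0.70. At the left end of chromosome VII, *COS12* (chrVII:2790-3932) and *YGL262W* (chrVII:5312-5839) lie next to each other. *COS12*, of a family of membrane proteins that act in sorting to the vacuole, had 191 and 178 normalized counts in *pbp1Δ* cells, against 56.2 and 73 in WT cells (log2 fold change 1.51 ± 0.19 SE, adjusted p = 0.00745). *YGL262W* had 229 and 259 normalized counts in *pbp1Δ* cells, against 84.7 and 86 in WT cells (log2 fold change 1.50 ± 0.28 SE, adjusted p = 0.0314). The other 11 tested COS genes were not called. *YAL037C-A*, the gene with the largest log2 fold change, had 73.8 and 117 normalized counts in *pbp1Δ* cells, against 33.9 and 26 in WT cells (log2 fold change 1.61 ± 0.32 SE, adjusted p = 0.0426), and *YMR122C* and *YEL023C*, of no known function, had log2 fold changes of 0.89 and 0.59.

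Of the 46 lists described, 21 had 0 called genes. Among their 545 members 53 (9.72%) had an unadjusted p under 0.05, beside 17.8% of all tested genes, and their medians ran from -0.14 for trehalose and glycogen to 0.35 for ergosterol synthesis. The lower share is in part built in, since these lists were taken for holding 0 called genes in the same tests. Of 20 ergosterol genes 19 lay above 0 and 17 had *pbp1Δ* libraries above both WT libraries, as 27.5% of all tested genes did. Of these 20 genes 11 had an unadjusted p under 0.05, and 1 was called with the YPL libraries alone. Cytosolic ribosomal proteins (138 genes, median -0.05), the proteasome (32 genes, 0.03), TORC1 and its regulators (17 genes, 0.02), Pbp1 partners and mRNA decay (25 genes, -0.03), autophagy (34 genes, 0.04) and lactate use with gluconeogenesis (16 genes, -0.04) were among them. *PUF3* had 3589 and 2974 normalized counts in *pbp1Δ* cells, against 3604 and 3867 in WT cells (log2 fold change -0.19 ± 0.19 SE, adjusted p = 0.676), and its groups do not overlap by a narrow margin. *POR1*, the porin of the outer membrane, had 111570.0 and 106160.0 normalized counts in *pbp1Δ* cells, against 78849 and 88128 in WT cells and was not called (adjusted p = 0.276). Single genes were called in nitrogen repression, *PUT2*, of proline breakdown, at -0.66, and among histones, *HHF2* at -0.80.

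Beside the YPD values, the lower genes kept their direction. Of the 161, 158 lay below 0 in YPD and 21 were called lower there, where 0.868% of all tested genes were, and their median log2 fold change was -0.97 in YPL and -0.43 in YPD. *MEF1* was called in both media, at -1.60 in YPL and -1.12 in YPD. *MIA40* and *TOM6* had -1.43 and -0.80 in YPL and -0.44 and -0.05 in YPD, where neither was called. Of the 25 higher genes 17 lay above 0 in YPD and 0 were called there, and their medians were 0.87 and 0.12. Without adjustment, the interaction had a p under 0.05 in 106 of the 161 lower and 17 of the 25 higher genes, where 7.02% of all tested genes did. That share and the medians in YPL set beside those in YPD are not independent of the calls, which rest on the same YPL values. After adjustment, in the fit without a replicate block, *SUL1* was called, against 360 of all tested genes with the block within each medium.

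**Figure D5:**
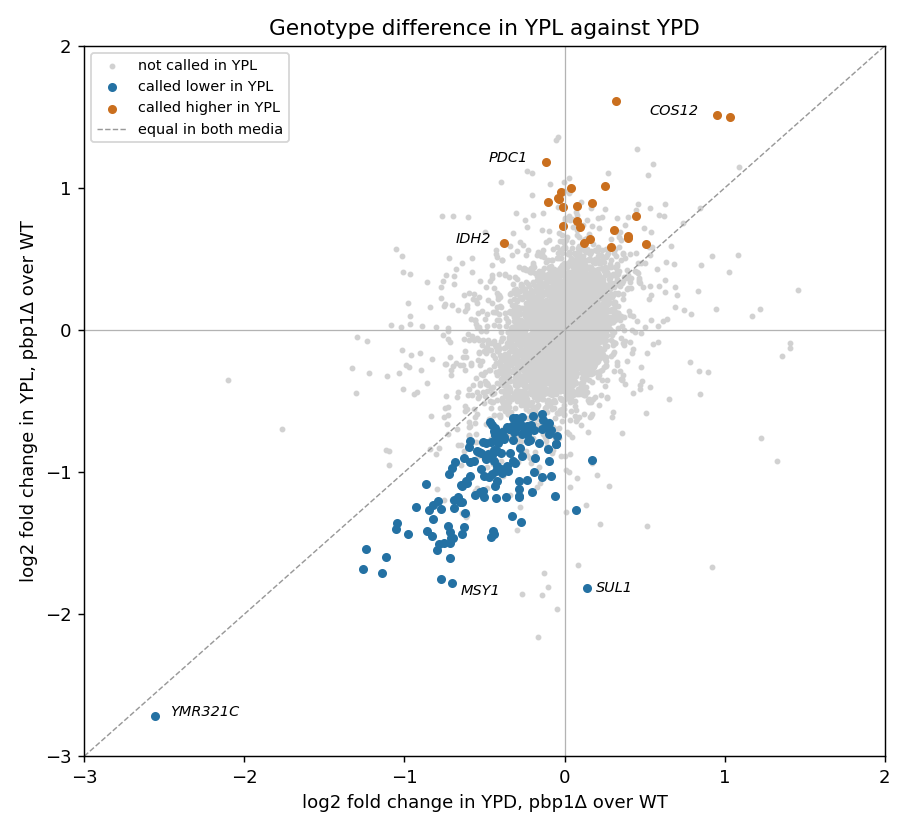
Log2 fold change (*pbp1Δ* over WT) in YPL on the vertical axis against that in YPD on the horizontal axis for the genes outside the mitoribosome and mating lists, colored by the call in YPL, with a dashed line where the 2 are equal. The lower genes lie mostly below the line on its negative side and *SUL1* stands at -1.82 in YPL and 0.14 in YPD; 6 genes, 4 of them called in YPL, lie beyond the axes.

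More genes were called when the YPD libraries were left out of the fit. With the 4 YPL libraries fitted alone, 291 genes were lower and 76 higher outside the lists set aside, where 6.49% and 1.44% of all tested genes were called. These included 185 of the 186 genes called in the full fit and 182 others, 130 lower and 52 higher. The replicates of the 182 differed in YPD by a median of 0.50 on the log2 scale, against 0.13 for the 186, and in YPL by 0.20, against 0.15. *CMK2*, a calmodulin-dependent kinase, had 2305 and 2556 normalized counts in *pbp1Δ* cells, against 7315 and 8662 in WT cells, in YPL (adjusted p = 0.384 in the full fit and adjusted p = 9.98e-05 with the YPL libraries alone). In YPD it had 22318 and 4799 in *pbp1Δ* cells, against 24454 and 5242 in WT cells. The genotypes are thus well apart in YPL, and in YPD the replicates of each genotype are further apart than the genotypes.

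*DIA1*, of invasive growth, had 1070.2 and 1020.4 normalized counts in *pbp1Δ* cells, against 3523 and 3819 in WT cells (adjusted p = 0.176 in the full fit, adjusted p = 4.58e-05 alone). *HSP78*, the disaggregase of the mitochondrial matrix, had 9463 and 10834 normalized counts in *pbp1Δ* cells, against 22689 and 27464 in WT cells (adjusted p = 0.669 in the full fit, adjusted p = 0.000406 alone). *ENO1*, an enolase, had 95458 and 86669.5 normalized counts in *pbp1Δ* cells, against 36422 and 34482 in WT cells (adjusted p = 0.546 in the full fit, adjusted p = 0.000508 alone). *ENO1* was thus the glycolytic gene with the largest difference in YPL, without a call in the full fit. *TDH1*, *HXK1* and *GLK1*, further isozymes of glycolysis, had log2 fold changes of 1.04, 0.80 and 0.81, and the complex IV factor *SHY1* and the import chaperone *TIM9* of -1.11 and -1.14. Of the 130 additional lower genes 50 hold an element and 50 are annotated to mitochondria, beside 13.4% and 17.1% of all tested genes outside the mitoribosome and mating lists. These genes were named after their values were seen.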

How the data were processed

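Poly-A RNA of 8 cultures was sequenced, and the authors aligned reads to the R64 assembly with STAR 2.7.3a, counted them per gene with featureCounts of Subread 1.6.3 and normalized them in DESeq2. The deposited values are normalized counts (a signal per gene with no unit of length), each column a whole multiple of 1 number within a tolerance of 0.01 reads, which gave the reads printed here; 3 reads were taken as the floor. Whether counting used strand is not stated in the sources used here, so that antisense and overlapping genes may share reads.

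Genes with a mean of at least 10 over the 8 libraries were tested with limma 3.58.1 (R 4.3.3) on log2(value + 1), with a mean trend, 4 groups in 1 fit and no replicate block. The script was checked on simulated data. Two-sided p-values were adjusted by Benjamini-Hochberg over all tested genes. They measure the spread between 2 cultures a group. The members and lists were chosen with earlier results of these data known. Named genes were the 20 lowest and all higher called genes whose YPL libraries do not overlap, up to 4 called genes of each list, genes called in the interaction, and *PBP1*, its neighbours, *PUF3*, transcripts the study measured singly and medium and mating markers; 1 gene that this rule takes is not reported here, and others are marked as chosen after their values were seen. Sequences are from the RefSeq copy of R64, on which all 5774 gene IDs matched, and gene annotations to mitochondria from its GO terms. Alternatives were another pseudocount, filter, scaling, block, threshold and window, the YPL libraries alone, and each library left out. Tests on reads were not run.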

Additional observations from a re-analysis of the deposited data

Results flagged for a closer look

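The genotype difference of *SUL1*, the sulfate permease, was not the same in the 2 media by a test of the difference itself. It was -1.82 on the log2 scale in YPL and 0.14 in YPD, a difference of -1.95 (adjusted p = 0.0115 for the interaction in limma, 2 libraries in each of 4 groups). Both *pbp1Δ* libraries were below both WT libraries in YPL, and in YPD both were above. The adjusted p was between 0.0135 and 0.204 when 1 library was left out, and above 0.05 in 6 of the 8 such fits. With the replicate number as a block within each medium it was 6.54e-05.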

How the results depend on the processing

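The pseudocount (0.5 or 8) and the absence of a filter on the mean left 161 lower and 25 higher genes outside the mitoribosome and mating lists. A mean of at least 100, no mean trend, centring on library medians and an adjusted p alone gave 131 to 182 lower and 22 to 34 higher genes. With a log2 fold change over 1 there were 76 and 6, and with the YPL libraries alone 291 and 76. Leaving out 1 of the 8 libraries gave 33 to 168 lower genes, 0 to 23 higher genes and 3 to 5 genes in the interaction, against 4 with all. Where this leaves 1 library in a group, its spread is assumed to be that of the other groups. The sign of the log2 fold change turned for 2 uncalled genes. *COX4* ranged from -0.0979 (without *pbp1Δ* YPL replicate 2) to 0.176 (without replicate 1) with 1 library left out. *OKP1* ranged from -0.0765 (without *pbp1Δ* YPL replicate 2) to 0.0176 (without replicate 1) and was at 0.0325 with centring. Windows of 100 and 300 nt found the element in 107 and 130 of the lower genes, against 126.

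The replicate numbers do not pair the samples by any label. Same-numbered libraries deviated together within a medium (correlation 0.24 in YPL and 0.85 in YPD), and between media the correlations were -0.22 to 0.01. With the replicate block over both media 172 genes were lower, 26 higher and 4 called in the interaction. With the block within each medium the counts were 318, 95 and 360, and the cause was not tested. Tests on whole reads with edgeR and DESeq2 and TMM scaling were planned and were not run. Genes with no more than 3 reads in a group have no measured fold change and are given as bounds.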
